A study of Mus musculus with 16 samples.

Results

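Six2, Eya1 and Eya2 are 3 of the 15876 genes measured in 16 RNA-seq libraries of the early mouse face, and were taken by gene symbol, 1 row each. Six2 belongs to a family of genes that encode homeodomain proteins, which bind DNA. Eya genes encode coactivators that have no DNA-binding domain of their own, carry a phosphatase activity, and are brought to target genes by proteins of that family, with Dach proteins as further cofactors. In the head this network is known from the preplacodal ectoderm, the band of surface ectoderm that forms the olfactory, otic and other sensory placodes. Six2 and Eya1 are also known from facial and periocular mesenchyme, and Six2 keeps nephron progenitors undifferentiated in the kidney.

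All libraries were made from total RNA of CD1 embryos, with no treatment or mutation given, and each region and stage had 1 library. Stages are embryonic days, and 4 libraries came from E8.5, 4 from E9.5 and 8 from E10.5. The ectoderm and olfactory pit class held E9.5 epidermal ectoderm and the E10.5 olfactory pit, the invaginating olfactory placode. The nasal and arch mesenchyme class held 6 libraries, namely E9.5 mandibular arch, E9.5 maxillary arch, E10.5 lateral nasal prominence, E10.5 mandibular arch, E10.5 maxillary arch and the E10.5 library labelled medial nasal prominence. E8.5 mesoderm and E9.5 cranial mesenchyme formed a class of other mesoderm and mesenchyme. Neural epithelium was represented by 6 libraries, of E8.5 caudal brain, floor plate and non-floor plate, and of E10.5 lateral prominence, central and dorsal control neural epithelium. The labels do not say how many embryos went into a library, how tissue layers were parted, or whether embryos were pooled. Arches and prominences were titled by region and not by tissue layer. Mesenchyme is the name used here for what their markers showed, except in the library labelled medial nasal prominence. That library was kept in the class by its title, although its markers went against the name.

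Values were ratios of each gene to its own median over the 16 libraries, and a level below is a value divided by the gene's lowest value. The lowest value was shared by 7 libraries for Six2 and by 4 each for Eya1 and Eya2, and is called the floor, so a level is a multiple of that floor. A level compares libraries for 1 gene and does not compare genes. The labels state a read depth above 40000000, no total per library was given, and no counting interval was computed.

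Marker genes were read before the members. The 10 surface epithelium markers, among them Cdh1, Epcam, Krt8 and Trp63, were all above the floor in epidermal ectoderm and in the olfactory pit, with mean log2 levels of 3.89 and 4.25. In the 6 mesenchyme libraries 0 to 2 of the 10 were above it. The 8 mesenchyme markers had mean log2 levels of 3.25 to 3.66 in 5 of the nasal and arch libraries. The library labelled medial nasal prominence went against that label. Its mesenchyme mean was 0.06, Twist1, Prrx1, Prrx2, Col1a2, Col3a1 and Lum were at the floor in it, and its neural epithelium mean of 3.51 was above the 1.87 to 3.48 of the 6 neural libraries. It is called by its label throughout, and results are given with and without it. The olfactory pit had 3 of 8 mesenchyme markers above the floor and a mean of 0.23, against 7 of 8 and 1.90 in epidermal ectoderm. Neural epithelium markers had means of 2.56 in epidermal ectoderm and 2.74 in the olfactory pit, within the 1.87 to 3.48 of the 6 neural libraries. The median of the genes that no 2 libraries tied at a lowest value lay at 0.34 in epidermal ectoderm and 0.21 in the olfactory pit on the log2 scale, and between -0.82 and 0.35 across the mesenchyme class, lowest in the E10.5 arches. Class differences are therefore given on the deposited scale and also relative to the median gene.

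Six2 was the 1 of the 3 members that matched the table of promoters, and the 250 bases before its start are shown to place the motifs searched below. They come from RefSeq (GRCm38.p6, chr17:85688255-85688504, minus strand), a later build than the mm9 of the files. The capitals mark a CCAAT box.
Six2 promoter: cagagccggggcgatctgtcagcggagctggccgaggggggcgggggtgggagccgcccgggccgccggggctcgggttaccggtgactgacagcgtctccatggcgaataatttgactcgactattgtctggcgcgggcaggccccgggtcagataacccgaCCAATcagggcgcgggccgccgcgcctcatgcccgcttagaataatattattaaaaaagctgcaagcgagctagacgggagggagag
Its GC content was 64.8%, against a median of 52.4% over 32851 promoter windows of the same length. Both strands were searched for 4 motifs. CCAAT was found 1 time, 87 bases before the start, and 33.8% of all windows hold it. TCAGGTTTC, the MEF3 motif that Six4 binds, had 0 matches, and 0.387% of windows hold it. TGATAC, the core of a motif known for the family of Six2, had 0 matches and is held by 4.64% of windows. CANNTG, the E-box that bHLH proteins such as Twist1 bind, had 0 matches and is held by 66.2%.

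Six2 had a level of 12.8 in epidermal ectoderm and 31.5 in the olfactory pit. In the nasal and arch mesenchyme class it was 1.35 in E9.5 mandibular arch, 3.68 in E9.5 maxillary arch, 5.04 in the lateral nasal prominence, 1.75 in E10.5 mandibular arch, 6.71 in E10.5 maxillary arch and at the floor in the library labelled medial nasal prominence. Both ectodermal libraries were above all 6 of the mesenchyme class, with the lowest of the first 1.91-fold over the highest of the second. The share of all genes whose classes part in this way was not computed, here or below, so such gaps are a description. Six2 nevertheless had its highest level of the series outside both classes, at 44.3 in E9.5 cranial mesenchyme, 1.41-fold over the olfactory pit. E8.5 mesoderm had a level of 4.36. All 6 neural epithelium libraries were at the floor.

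Eya1 encodes a coactivator that the ear, kidney and branchial arch derivatives need, as mouse mutants show. Its level was 17.2 in epidermal ectoderm and 23.4 in the olfactory pit. In the mesenchyme class it was 6.32 in E9.5 mandibular arch, 8.98 in E9.5 maxillary arch, 6.82 in the lateral nasal prominence, 4.79 in E10.5 mandibular arch, 9.51 in E10.5 maxillary arch and at the floor in the library labelled medial nasal prominence. The ectodermal libraries again did not overlap the others, the lower of them being 1.81-fold over E10.5 maxillary arch. Cranial mesenchyme (10.4) and E8.5 mesoderm (8.82) lay beside the maxillary arch libraries in the order of levels. Eya1 in neural epithelium was 2.04 in caudal brain, 1.99 in floor plate and 1.67 in non-floor plate at E8.5, and at the floor in the 3 libraries of E10.5.

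Eya2, the paralogue known from cranial placodes and their neurons, had the widest gap. Its level was 42.9 in epidermal ectoderm and 49.8 in the olfactory pit. In the mesenchyme class it was 2.23 in E9.5 mandibular arch, 2.99 in E9.5 maxillary arch, 3.62 in the lateral nasal prominence, 2.09 in E10.5 mandibular arch, 2.18 in E10.5 maxillary arch and at the floor in the library labelled medial nasal prominence. The lower ectodermal level was 11.8-fold over the highest of the mesenchyme class and 3.71-fold over the next library of the series, E8.5 mesoderm at 11.5. Where Six2 peaked, in cranial mesenchyme, Eya2 was at the floor. In neural epithelium Eya2 was 5.83 in floor plate, 3.77 in the library titled dorsal control, 2.04 in non-floor plate, 1.37 in the library titled central and at the floor in caudal brain and lateral prominence.

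**Figure D1:**
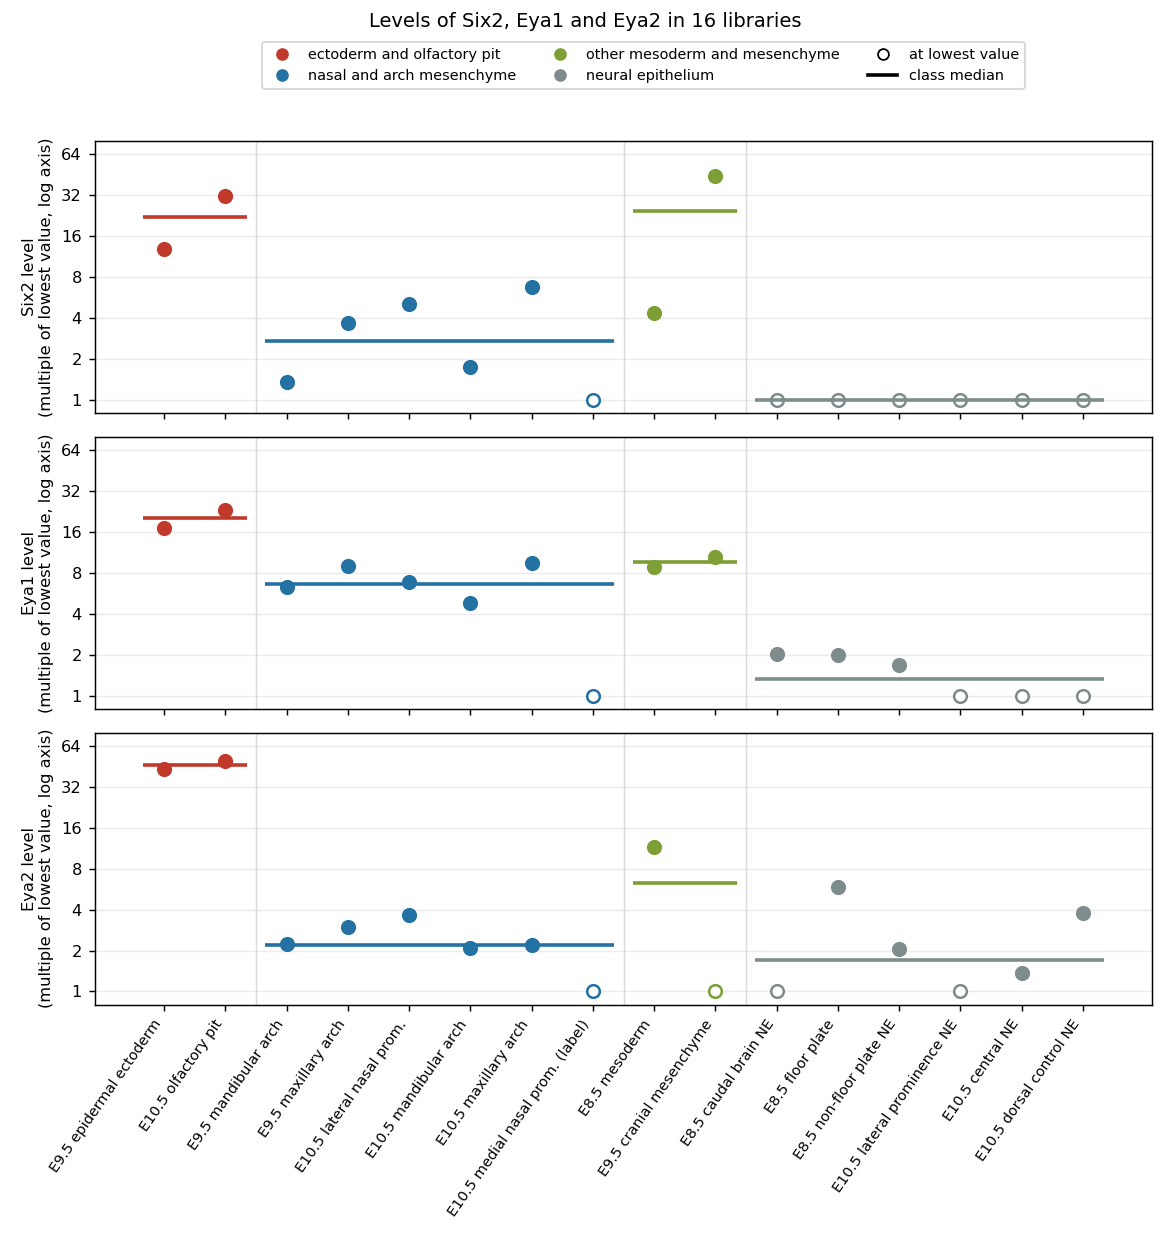
Levels of Six2, Eya1 and Eya2 (log axis, multiple of the gene's lowest value) in each of the 16 libraries, coloured by class, with open circles at the floor and lines at class medians. The 2 ectodermal libraries lie above all 6 nasal and arch libraries for each gene, and Six2 is highest in E9.5 cranial mesenchyme at 44.3. The share of all genes with that order was not computed.

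The levels of many libraries lay close together, and a single library carries no replicate error. For Eya1, each library from rank 3 (cranial mesenchyme) to rank 9 (E10.5 mandibular arch) was within 1.32-fold of its neighbour. The Eya1 log2 levels of the mesenchyme class had an SD of 1.21 (n = 6), or of 0.40 (n = 5) without the library labelled medial nasal prominence. The 1.32-fold step is about as large as that smaller spread, and the other steps in this stretch are below it. The step from E10.5 mandibular arch to caudal brain was 2.35-fold. For Eya2 the step below epidermal ectoderm (3.71-fold) was the widest. From rank 5 (dorsal control) to rank 11 (non-floor plate) no step passed 1.34-fold, and 5 mesenchyme libraries lay there between 2 neural ones. For Six2 the steps below the olfactory pit (2.47-fold), below epidermal ectoderm (1.91-fold) and below E9.5 maxillary arch (2.10-fold) were the widest above the floor.

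The first comparison set the ectoderm and olfactory pit class (2 libraries) against nasal and arch mesenchyme (6 libraries), the question being how far these genes follow the placodal surface rather than the underlying tissue. Of the 3 members 1 rose, Eya2, and 0 fell. Of the 12401 genes tested 215 passed (1.73%), of which 211 rose (1.7%) and 4 fell (0.0323%). Relative to the median gene, which was 0.44 higher on the log2 scale in ectoderm and olfactory pit, 26 rose and 8 fell. Mean log2 levels of Eya2 were 5.53 ± 0.15 in ectoderm and olfactory pit (SD, n = 2) and 1.13 ± 0.63 in mesenchyme (SD, n = 6). The difference was 4.40 with a standard error of 0.54 and a 95% interval of 3.18 to 5.62, about 21.1-fold (limma with Benjamini-Hochberg adjustment over all genes tested, adjusted p = 0.00334). Relative to the median gene the difference was 3.96, and the call was lost at a limma adjusted p of 0.0679. With 1 ectodermal library left, which is assumed to vary like the mesenchyme libraries, the difference was 4.51 without epidermal ectoderm and 4.29 without the olfactory pit, and the call was lost (limma adjusted p = 0.0519 and 0.0509).

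Six2 averaged 4.33 ± 0.92 in ectoderm and olfactory pit (n = 2) and 1.37 ± 1.11 in mesenchyme (n = 6) on the log2 scale (SD). The difference of 2.96 had an interval of 0.50 to 5.43 and did not pass after adjustment over all genes (limma, Benjamini-Hochberg adjusted p = 0.427). Eya1 averaged 4.33 ± 0.31 in ectoderm and olfactory pit (n = 2) and 2.35 ± 1.21 in mesenchyme (n = 6) on that scale (SD). Its difference of 1.98 had an interval of 0.22 to 3.73 and did not pass either (limma, Benjamini-Hochberg adjusted p = 0.489). Without the library labelled medial nasal prominence the differences were 2.69 for Six2 (limma adjusted p = 0.316), 1.50 for Eya1 (0.0663) and 4.17 for Eya2 (0.00335), so no member changed its call. In that fit 2.44% of 12030 genes rose and 0.15% fell. Libraries of a class are different regions and stages, so these p-values measure spread between regions and not between repeats. A ratio in bulk tissue also cannot tell fewer expressing cells from less RNA per cell.

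Surface epithelium markers moved with this comparison. Their summed level was 259 to 330 in the ectoderm and olfactory pit class and 10 to 12.04 in mesenchyme, and all 10 markers were at the floor in the lateral nasal prominence, E10.5 mandibular arch and the library with the medial nasal label. Neuron and ganglion markers were also high in the olfactory pit, with a mean log2 level of 3.34 against 1.28 in epidermal ectoderm, and the library with the medial nasal label had 2.77. Mesenchyme markers summed to 9.73 to 38.0 in ectoderm and olfactory pit and to 8.42 to 150 in mesenchyme, the low end being that same library. Erythroid markers had mean log2 levels of 3.22 to 5.15 in ectoderm and olfactory pit and 3.31 to 6.35 in mesenchyme. Endothelial markers had 0.06 to 0.07 in ectoderm and olfactory pit and 1.06 to 2.69 in mesenchyme, and the 3 measured branchial muscle markers had 0 to 0.07 and 0 to 1.56 in those classes. The part of cell makeup in the differences of Six2, Eya1 and Eya2 was not tested. The Eya2 levels of 3.62, 2.09 and 1 in the lateral nasal prominence, the E10.5 mandibular arch and the library labelled medial nasal prominence stood beside surface markers that were all at the floor. Of the genes with a shared lowest value, 74.3%, 81.5% and 54.3% were at the floor in these libraries, in that order. The share was 50.6% in the olfactory pit, and that of epidermal ectoderm was also below the first 2. Low surface expression cannot be told from none at the floor, and its part in these Eya2 levels was not tested.

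**Figure D2:**
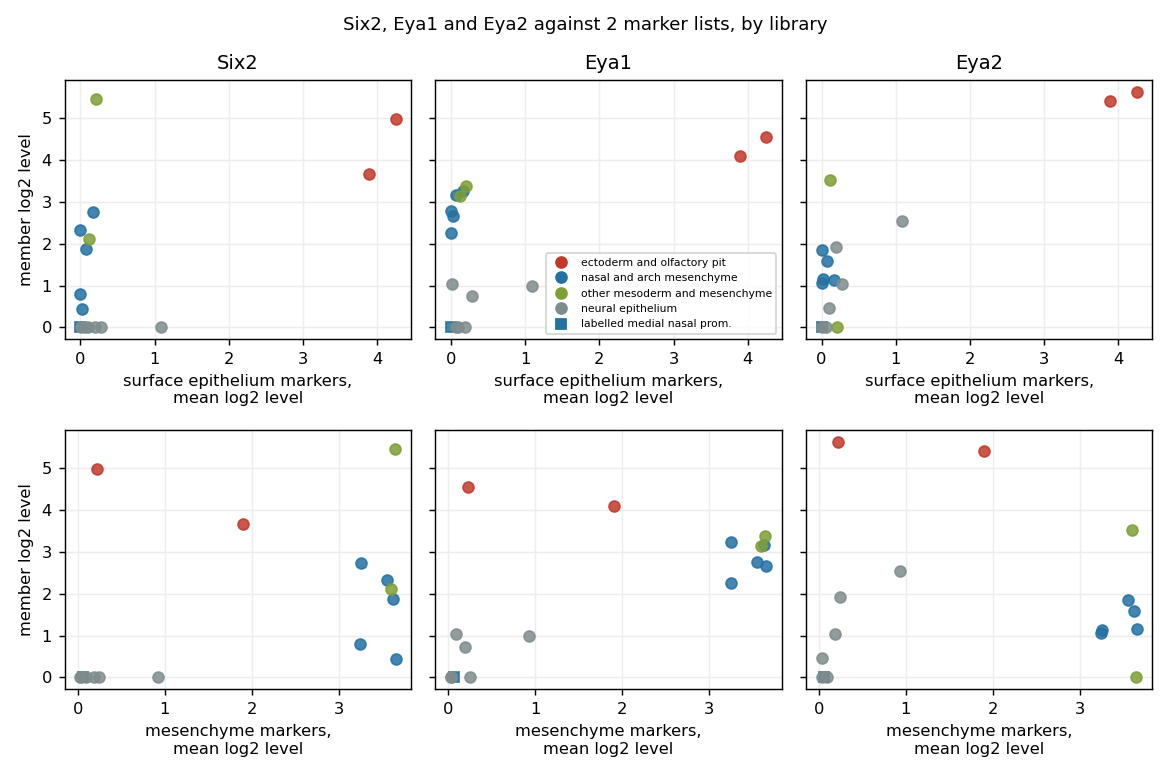
Log2 level of Six2, Eya1 and Eya2 (vertical axes) against the mean log2 level of surface epithelium markers (top row) and mesenchyme markers (bottom row) in each of the 16 libraries, coloured by class, with a square for the library labelled medial nasal prominence. The 2 ectodermal libraries stand apart at surface means of 3.89 and 4.25, while Six2 and Eya1 are also above the floor in libraries with mesenchyme means of 3.25 or more. So is Eya2, except in E9.5 cranial mesenchyme.

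The second comparison placed nasal and arch mesenchyme (6 libraries) against neural epithelium (6 libraries). With all libraries 0 of the 3 members were called in either direction under limma, beside 25 of 13072 genes, or 0.191%, while 1295 genes had an unadjusted p under 0.05. Of the 25 genes 19 rose (0.145%) and 6 fell (0.0459%), and relative to the median gene 58 rose and 31 fell. Six2 was above the floor in 5 of 6 mesenchyme libraries and in 0 of 6 neural ones, so it entered the fit through the class where it is high, and no test of it is read here. Eya1 was 1.89 higher in mesenchyme on the log2 scale with a standard error of 0.74 (limma, Benjamini-Hochberg adjusted p = 0.388). Eya2 differed by 0.14 with an interval of -0.84 to 1.11 (limma adjusted p = 0.971). At unadjusted p-values Eya1 had 0.0242 and Eya2 0.762 in the limma fit.

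In this comparison the call of Eya1 turned on 1 library. The number of genes called moved whichever of the 12 libraries was left out, from 0 to 330. Without the library labelled medial nasal prominence, Six2 was 1.35 to 6.71 in mesenchyme, with a median of 3.68, against the floor in all 6 neural libraries. Eya1 was 4.79 to 9.51 in the 5 mesenchyme libraries, against at most 2.04 in neural epithelium, so the classes did not overlap. Eya1 then passed with a difference of 2.36 and a limma adjusted p of 0.0266, in a fit that called 330 genes where the full one called 25. Of the 12814 genes in it 0.936% rose and 1.64% fell. Six2 was then at least 1.35-fold higher, the level of E9.5 mandibular arch over the neural floor, again with no test, since the neural values had no spread. Eya2 still overlapped, at 2.09 to 3.62 in the 5 mesenchyme libraries and 1 to 5.83 in neural epithelium (difference 0.37, limma adjusted p = 0.777). Neural epithelium markers summed to 9.21 to 214 in mesenchyme, the top value again that library, and to 68.3 to 264 in neural epithelium.

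The third comparison set ectoderm and olfactory pit (2 libraries) against neural epithelium (6 libraries), and here Eya1 and Eya2 rose. Of 12624 genes tested 199 passed, or 1.58%, of which 194 rose (1.54%) and 5 fell (0.0396%). Six2 was at least 12.8-fold higher as deposited, the level of epidermal ectoderm over the neural floor. It entered the fit through the ectodermal libraries alone and its 6 neural values had no spread, so no test of it is given. Eya1 averaged 4.33 ± 0.31 in ectoderm and olfactory pit (n = 2) and 0.46 ± 0.51 in neural epithelium (n = 6) on the log2 scale (SD). Its difference was 3.87 with a standard error of 0.62 (limma, Benjamini-Hochberg adjusted p = 0.0194), and the lowest ectodermal level was 8.45-fold over the highest neural one. Eya2 averaged 5.53 ± 0.15 in ectoderm and olfactory pit (n = 2) and 0.99 ± 1.05 in neural epithelium (n = 6). Its difference was 4.54 with a standard error of 0.73 (limma adjusted p = 0.0194), and the lowest ectodermal level was 7.36-fold over floor plate. Both calls held relative to the median gene, each with a limma adjusted p of 0.0369. With 1 ectodermal library left, which is assumed to vary like the neural ones, the Eya1 difference was 4.09 without epidermal ectoderm and 3.65 without the olfactory pit, and the call was lost (limma adjusted p = 0.562 and 0.428). Eya2 kept a difference of 4.65 and 4.43 in those fits and lost its call in both, as it did without caudal brain, lateral prominence or the library titled central, with limma adjusted p-values up to 0.172. The neural libraries are shared with the second comparison and the ectodermal ones with the first, so these results are not independent of one another. Surface epithelium markers summed to 259 to 330 in ectoderm and olfactory pit and to 10.1 to 32.6 in neural epithelium. Neural epithelium markers did not part these classes, with sums of 115 to 143 in ectoderm and olfactory pit and 68.3 to 264 in neural epithelium.

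Another 8 genes of the network were examined. Six3, Six4, Six5 and Six6 encode further homeodomain proteins, Eya3 and Eya4 further coactivators, and Dach1 and Dach2 the cofactors. Against mesenchyme 0 of the 8 rose or fell in ectoderm and olfactory pit, with a median log2 difference of 0.81 where that of all genes tested was 0.38. Six3, Six4 and Eya4, like the members, were higher in both ectodermal libraries than in every mesenchyme library. The share of all genes that part in this way was not computed, so that order is a description. For Six5, Six6, Eya3, Dach1 and Dach2 the classes overlapped. Against neural epithelium 2 of the 7 tested rose, Six4 and Eya4, with a median of 0.69 where all genes had 0.25. Between mesenchyme and neural epithelium 0 of 7 passed, with a median of 0.12 against -0.10 over all genes. Without the library labelled medial nasal prominence 0 of the 7 passed there, and against mesenchyme 0 of the 8 passed in ectoderm and olfactory pit.

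Six4, which binds the same MEF3 motif searched above, had levels of 10.05 and 9.26 in epidermal ectoderm and olfactory pit and at most 2.92 in neural epithelium, a difference of 2.62 (limma, Benjamini-Hochberg adjusted p = 0.0378). Eya4 had 9.27 and 12.7 in the same ectodermal libraries and at most 3.40 in neural epithelium, a difference of 2.99 (limma adjusted p = 0.0275) whose call was lost relative to the median gene (adjusted p = 0.119). Six3, known as a forebrain and eye regulator, overlapped between these classes, with 24.1 and 36.4 in epidermal ectoderm and olfactory pit and 1 to 116 in neural epithelium, and it is also among the neural epithelium markers used here. Eya3 stayed between 1 and 1.81 in all 16 libraries and Six6 between 1 and 1.67. Dach1 peaked at 6.55 in E9.5 maxillary arch, with 6.44 close below it in E9.5 epidermal ectoderm. Dach2 peaked at 4.14 in the library labelled medial nasal prominence.

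**Figure D3:**
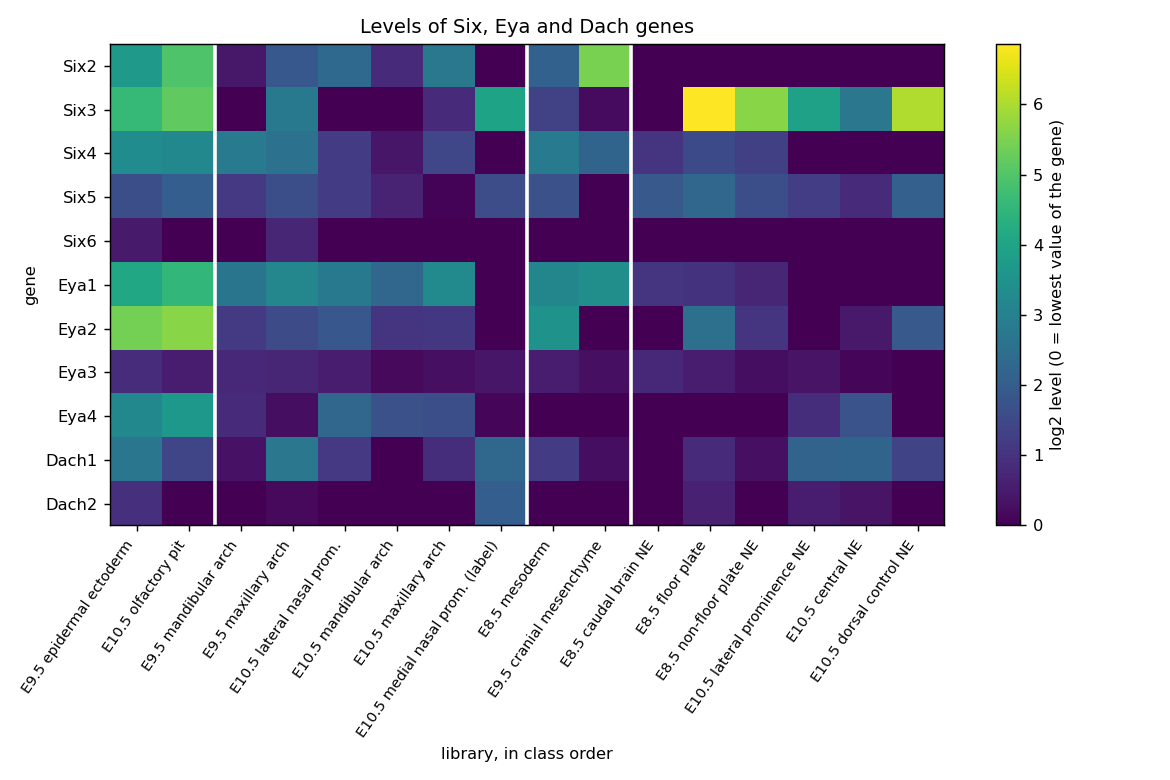
Log2 levels of 11 network genes, Six2 to Six6, Eya1 to Eya4 and Dach1 and Dach2 (rows), in the 16 libraries (columns, by class, white lines between classes), with 0 at each gene's lowest value. Six2, Eya1 and Eya2 are bright in the 2 ectodermal columns, Six3 is brightest in E8.5 floor plate (116 as a level), and Eya3 and Six6 are dark throughout.

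**Figure D4:**
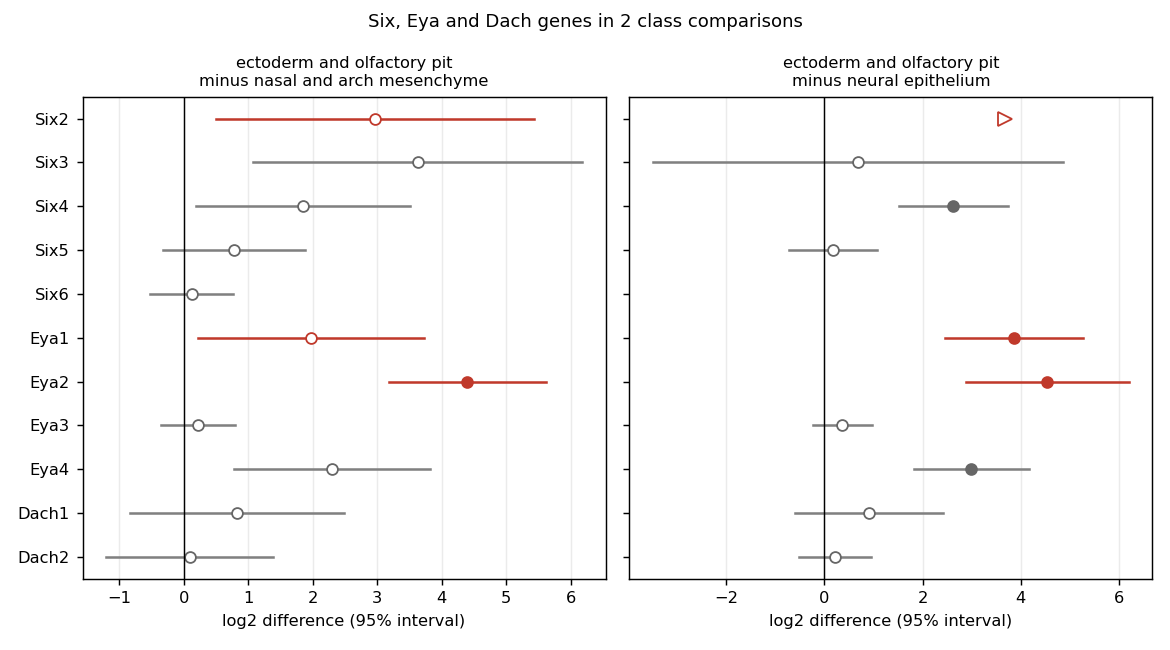
Differences of the same genes in log2 with 95% intervals for ectoderm and olfactory pit minus nasal and arch mesenchyme (left) and minus neural epithelium (right), with members in red and filled points for genes that passed (limma, adjusted p under 0.05 and 2-fold). Eya2 passed on the left at 4.40, and on the right Eya1, Eya2, Six4 and Eya4 passed, while the open triangle is the lower bound for Six2, given with no test, and Six6 was not tested.

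Genes that act beside the network in placodes were counted in the same fits. Of 16 measured preplacodal and olfactory genes 15 were tested against mesenchyme, and 3 rose and 0 fell in ectoderm and olfactory pit. Sp8, a zinc finger factor of the olfactory pit, had levels of 8.79 to 14.2 in ectoderm and olfactory pit and at most 1.03 in mesenchyme (difference 3.47). Neurog1, which starts placodal neurogenesis, was at least 5.16-fold and the ligand gene Fgf8 at least 3.20-fold higher. Neurog1 and Fgf8 were at the floor in all 6 mesenchyme libraries, and Sp8 was at or near it. All 3 met the filter through the class where they are high, so their calls are a description. None of these 3 passed relative to the median gene. Without the library labelled medial nasal prominence they passed beside Sox2, a neural and placodal progenitor factor, 4 of 14 tested. The list's median difference with all libraries was 1.86, or 1.23 with genes at the floor throughout a class set to their bound, where all genes tested had 0.38 in both cases. Against neural epithelium 3 of 15 rose, Dlx5, Neurog1 and Dlx3, the last at the floor in all 6 neural libraries, with none relative to the median gene and a median of 2.16, or 1.67 with such genes at their bound. Of the Pax genes of the network, Pax2, Pax3, Pax6, Pax7 and Pax8, 0 of 3 tested passed against mesenchyme and 1 of 5, Pax3, rose against neural epithelium (difference 1.98, limma adjusted p = 0.0194), a call lost relative to the median gene. Between mesenchyme and neural epithelium 0 of 15 preplacodal and olfactory genes and 0 of 5 Pax genes passed, and without that library Sox2 was the 1 of 14 that fell, with 0 of 5 Pax genes.

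Of 15 measured genes of nasal and facial mesenchyme, 0 rose or fell in ectoderm and olfactory pit against mesenchyme, with a median difference of -0.67, or 0 with genes at the floor throughout a class set to their bound. In mesenchyme against neural epithelium 2 of 14 rose, Prrx1 (difference 4.44, limma adjusted p = 0.0481) and Twist1, which was at the floor in all 6 neural libraries. The median over the 14 was 1.69, or 0 with genes at the floor throughout a class set to their bound, 9 of the 14 being such genes. Without the library labelled medial nasal prominence 6 of the 14 rose, Prrx1, Prrx2, Twist1, Pdgfra, Foxc1 and Msx1, of which Twist1, Pdgfra and Foxc1 were at the floor in all 6 neural libraries and so entered the fit only through mesenchyme. Against neural epithelium 0 of the 7 tested rose or fell in ectoderm and olfactory pit. Of 6 measured genes reported as partners or downstream genes of the network, Sall1, Slc12a2, Ccnd1, Fgf10, Tbx1 and Ezr, 0 passed in any of the 3 comparisons with all libraries as deposited, and 2, Sall1 and Ezr, fell in mesenchyme against neural epithelium relative to the median gene (limma adjusted p = 0.0175 and 0.0265), with a median difference of 1.07 in ectoderm and olfactory pit against mesenchyme. Without the library labelled medial nasal prominence Ezr, which encodes a linker of membrane and actin, rose in ectoderm and olfactory pit against mesenchyme (3.84, limma adjusted p = 0.0111), and Ezr and Sall1 fell in mesenchyme against neural epithelium.

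Single libraries were compared within tissues, and a gene was counted at 2-fold or more relative to the median gene if its higher level was at least 5. No p-value can be given. In the olfactory pit over epidermal ectoderm, Six2 was 2.71-fold higher and was counted, where 22.8% of 2558 eligible genes were higher and 14.2% lower. Eya1 at 1.49-fold and Eya2 at 1.28-fold were not counted. These differences between 2 libraries have no replicate error.

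At E10.5 Six2 was 3.92-fold lower in mandibular than in maxillary arch, where 27.1% of 576 eligible genes were lower and 39.6% higher, so most eligible genes were counted in this pair. At E9.5 it was 2.68-fold lower, with levels of 1.35 and 3.68 that were too low to be counted, where 14.9% of 2477 eligible genes were lower and 7.75% higher. Eya1 was 2.03-fold lower in mandibular arch at E10.5 and was counted, but was 1.99-fold lower as deposited, and at E9.5 it was 1.39-fold lower and not counted. Eya2 differed by 1.07-fold at E10.5 and 1.31-fold at E9.5, lower in mandibular arch each time and not counted. The lateral nasal prominence had Six2 2.32-fold over E10.5 mandibular arch, where 13.3% of 603 eligible genes were higher and 11.4% lower, and no member was counted between it and E10.5 maxillary arch, where 40.9% of 651 eligible genes were higher and 24.4% lower.

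Between stages the calls depended on the scaling. In E10.5 over E9.5 maxillary arch, Six2 was 4.07-fold and Eya1 2.37-fold higher relative to the median gene, where 10.7% of 2140 eligible genes were higher and 63.6% lower. As deposited the folds were 1.82 and 1.06 and neither was counted, because the median gene itself lay 1.16 lower on the log2 scale at E10.5. Eya2 was 1.63-fold higher relative to the median gene and 1.37-fold lower as deposited, so its direction turned with the scaling. In E10.5 over E9.5 mandibular arch no member was counted, where 14.1% of 1975 eligible genes were higher and 52.4% lower. Relative to the median gene Six2 was 2.57-fold, Eya1 1.50-fold and Eya2 1.85-fold higher. As deposited Six2 was 1.30-fold higher, while Eya1 was 1.32-fold and Eya2 1.07-fold lower, so the direction of both Eya genes turned with the scaling.

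Mesoderm and cranial mesenchyme parted Six2 from Eya2. In E9.5 cranial mesenchyme over E8.5 mesoderm, Six2 was 11.8-fold higher, where 18.7% of 2783 eligible genes were higher. Eya2 was at least 9.97-fold lower, being at the floor in cranial mesenchyme, where 8.84% of genes were lower. Eya1 was 1.36-fold higher and not counted.

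Likeness was described as Pearson's r of log2 levels over the 16 libraries, among 4907 genes with a level of at least 5 and at least 4 libraries above the floor. The libraries share tissue classes and floors, so r is given as a description. Eya1 was most like Tes (r = 0.90), Fblim1 (0.89), Epb4.1l2 (0.88), Airn (0.87) and Cxcl12 (0.87), a chemokine gene, with Six4 at rank 7. Six2 was most like Crym (0.92), then Eya1 (0.86), Creg1 (0.84), Ell2 (0.83) and Stra6 (0.82), the retinol carrier receptor. Crym encodes a thyroid hormone-binding protein, and its level was 16.2 in cranial mesenchyme and 3.77 in the olfactory pit. Eya2 was most like Itga3 (0.89) and Erbb3 (0.89), receptors for matrix and for neuregulin, and Krt18 (0.88), Mov10 (0.86) and Grhl2 (0.86). Krt18 and Grhl2 are also among the surface epithelium markers used here. Between members, r was 0.86 for Six2 and Eya1, 0.63 for Eya1 and Eya2 and 0.51 for Six2 and Eya2.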

How the data were processed

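Per the labels' protocols, total RNA was extracted with a Zymo MicroPrep kit and sequenced single-end to 50 bases (Illumina HiSeq). The submitters' processing notes name Bowtie, TopHat, TopHat2, Cufflinks and mm9, without versions. The deposited values are a ratio, each gene having been divided by the authors by its median over 16 libraries, and shared lowest values show a floor. The unit before division is unknown. Members and lists were chosen with earlier results of these data known. A gene was tested if 2 or more libraries of the fit exceeded its floor, with limma 3.58.1 (R 4.3.3, mean-variance trend) on the log2 ratio, and passed at 2-fold and an adjusted p (Benjamini-Hochberg) under 0.05. Genes named are the members, listed genes that passed, the network list, and the 5 genes most like each member. Some genes are not reported here and were left out of the lists and the ranking by likeness. Classes follow the titles. File headers of 2 neural libraries, titled central and dorsal control, name each other's region, which leaves class results as they are. The fits were tested on simulated data that had no floor and no tied values, so that check does not cover genes at the floor. Alternatives were another scaling, other filters, no trend, stage terms, added libraries and each library left out.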

Additional observations from a re-analysis of the deposited data

Results flagged for a closer look

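Of 5 combinations of a member and a class of 6 libraries with any range, 1 had a library standing apart. Eya1 in the library labelled medial nasal prominence was at the floor, a level of 1, where the other 5 nasal and arch libraries lay between 4.79 and 9.51. On the log2 scale its gap to the nearest library was 0.695 of the whole range, above Dixon's critical value of 0.625 for 6 samples. Chance flags about 1 in 20 groups. The same library had 2 of 8 mesenchyme markers and 8 of 9 neural epithelium markers above the floor, and their part in the Eya1 level was not tested.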

How the results depend on the processing

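Each region and stage had 1 library, and the classes differ in stage and makeup. The depth of each library and the unit before division are unknown, so at the floor low expression cannot be told from none. Values at the floor enter the limma fits as they stand. No paired test was run, since each region and stage had 1 library. With stage as a covariate the differences of ectoderm and olfactory pit from mesenchyme were 3.06 for Six2, 1.89 for Eya1 and 4.37 for Eya2, with no change of call. The cause of the changes below was not tested, apart from those that fewer genes or libraries make.

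In ectoderm and olfactory pit against mesenchyme, Eya2 was 3.96 relative to the median gene (limma adjusted p = 0.0679, call lost). Its adjusted p ranged from 0.00193 to 0.0679 over the alternatives. Leaving out 1 library gave 2.31 to 3.61 for Six2, 1.50 to 2.19 for Eya1 and 4.17 to 4.54 for Eya2, which lost its call in 2 of 8. The genes called were 215, against 34 relative to the median gene, 61 above the floor in at least 3 libraries and 20 to 312 with 1 library left out.

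In mesenchyme against neural epithelium the genes called were 25, against 89 relative to the median gene, 1 with no filter, 47 above the floor in at least 3 libraries, 15 without a trend, 0 with E10.5 libraries alone (834 at an unadjusted p under 0.05) and 0 to 330 with 1 library left out. With E10.5 alone and without the library labelled medial nasal prominence, 956 genes were called, and the number of genes tested was not kept. Eya1 (2.76) and Six2 (1.96) were among them and were at the floor in all 3 neural libraries of that stage. Both entered that fit only through mesenchyme, so their calls are a description. Leaving out 1 library gave 1.09 to 1.64 for Six2, 1.71 to 2.36 for Eya1 and -0.06 to 0.45 for Eya2. Eya2 turned to -0.0585 without caudal brain, -0.0585 without lateral prominence and -0.00551 without the lateral nasal prominence.

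In ectoderm and olfactory pit against neural epithelium the genes called were 199, against 57 relative to the median gene, 58 above the floor in at least 3 libraries and 49 to 168 with 1 library left out. Eya1 stayed at 3.87 under that filter with a limma adjusted p of 0.0595. Leaving out 1 library gave 3.65 to 4.09 for Eya1, which lost its call in 2 of 8, and 4.34 to 4.85 for Eya2, which lost it in 5 of 8. As deposited, log2 ratios were -0.99 for Eya1 in E10.5 mandibular over maxillary arch, and 0.87 for Six2 and 0.08 for Eya1 in E10.5 over E9.5 maxillary arch.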
